A study of Mus musculus with 19 samples.

Results

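The 49 genes described here serve DNA replication and mitosis, and their transcripts were followed in mouse CD8 T cells, the cytotoxic lymphocytes that kill virus-infected and malignant cells. The genes were chosen by symbol, and all 49 were found among the 53656 genes of the count tables. By textbook function, 11 act at the replication fork or in its licensing (Pcna, Mcm2, Mcm3, Mcm4, Mcm5, Mcm6, Mcm7, Cdc6, Cdc45, Cdt1 and Gins2) and 4 supply deoxynucleotides (Rrm1, Rrm2, Tyms and Tk1). These 15 are called the replication members below. Of the others, 20 act in mitosis, 4 are transcription factors of the cell cycle, 6 are cyclins or kinases of G1 and S phase, 3 inhibit cyclin-dependent kinases and 1, Mtfr2, encodes a mitochondrial fission regulator.

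RNA had been sequenced from 19 libraries of C57BL/6 CD8 T cells in 7 groups. Late SV40-I cells (3 libraries) carried a transgenic receptor named SV40-I, were sorted as Thy1.1 cells and came from malignant liver lesions at days 20 to 21. Late OT-I cells (3 libraries) were Ly5.1 cells with the transgenic OT-I receptor, whose known target is an ovalbumin peptide, from such lesions at the same days. Marker-high cells (3 libraries) were Thy1.1 SV40-I cells with high PD1, LAG3 and CD39, taken from lesions at days 8 to 9, and marker-low cells (3 libraries) had low levels of those surface proteins at the same days. TOX-GFP cells (2 libraries) were SV40-I cells activated through CD3 and CD28, infected with a retrovirus carrying the nuclear factor TOX with GFP and grown with IL-2, and GFP cells (2 libraries) received GFP alone. Naive cells (3 libraries) were SV40-I cells sorted for low CD44, an activation marker. Every group except late OT-I shares the SV40-I receptor, and no label gives the animals' ages.

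Several features limit what the groups can stand for. Late SV40-I cells were not sorted by PD1, LAG3 and CD39, late OT-I cells differ from naive cells in receptor as well as in tissue, and TOX came from a viral vector. The source field names splenocytes for all 19 libraries although the titles name lesions for 4 groups, and column headings of the marker-high and marker-low tables carry the letters WT and KO although no genotype is labelled. Whether libraries of a group stem from different animals or cultures is not labelled. The p-values therefore reflect library spread that may be technical.

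The libraries held 37006508 to 54195918 counts each. Transcripts that define CD8 T cells (Cd3d, Cd3e, Cd3g, Cd8a, Cd8b1, Trac and Cd247) were present in every group and summed to 5326 to 25805 CPM (counts scaled to the library total). Tox itself had 156 and 118 CPM in TOX-GFP libraries, against 13.8 and 21.4 CPM in GFP libraries. It had 90.3 to 129.7 CPM in naive, 48.9 to 124.6 in marker-low and 359 to 731 in marker-high libraries. In late SV40-I libraries it had 666 to 949 CPM and in late OT-I libraries 18.4 to 31.1. Exons of 15 members overlap another gene, namely Mcm7, Cdc45, Gins2, Cdk2, Ccna2, Ccne2, Ccnd2, Ccnd3, Tk1, Foxm1, Plk1, Cdc20, Kif20a, Nusap1 and Top2a. Without a strand setting in the count headers the reads of such partners cannot be told apart.

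A cell that leaves quiescence passes G1 under the D and E cyclins, copies its DNA in S phase with the MCM helicase, the clamp PCNA and freshly made deoxynucleotides, and then divides under cyclin B with CDK1, PLK1 and the Aurora kinases. E2F factors switch on replication genes late in G1, while MYBL2 and FOXM1 act later with the MuvB complex on mitotic genes. Naive T cells rest in G0 and divide rapidly after antigen stimulation, which is why these transcripts are widely read as a sign of division in T cells.

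The promoters of the members hold short elements known for these programmes, so a few are printed here as sequence context for members described below. RefSeq windows of 300 bases (GRCm38.p6, 250 before to 50 after each transcript start) were present for 40 of the 49 members. They were searched on both strands for the CHR element (TTTGAA or TTCGAA), for CCAAT and for the E2F motif TTTNNCGC. CHR letters stood in 12 of 17 mitosis windows (70.6%), 3 of 13 replication windows (23.1%) and 19.4% of the first windows of 27025 genes. E2F letters stood in 1 of 17 mitosis windows (5.88%), 7 of 13 replication windows (53.8%) and 5.27% of all genes' first windows. CCAAT stood in 15 of 17 mitosis windows (88.2%), 9 of 13 replication windows (69.2%) and 37.9% of all genes' windows. A match says only that the letters are there, and motifs can overlap. The sequences below give the 200 bases before the start, 5′ to 3′ on the gene's strand, with matches in capitals, first for 3 replication genes and then for 4 mitotic genes.
Mcm5 (chr8:75109309-75109508, plus strand): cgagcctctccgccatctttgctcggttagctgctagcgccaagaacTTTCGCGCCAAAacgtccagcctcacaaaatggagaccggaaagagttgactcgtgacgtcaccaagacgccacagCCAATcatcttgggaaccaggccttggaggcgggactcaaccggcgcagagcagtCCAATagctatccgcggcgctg
Mcm6 (chr1:128359706-128359905, minus strand): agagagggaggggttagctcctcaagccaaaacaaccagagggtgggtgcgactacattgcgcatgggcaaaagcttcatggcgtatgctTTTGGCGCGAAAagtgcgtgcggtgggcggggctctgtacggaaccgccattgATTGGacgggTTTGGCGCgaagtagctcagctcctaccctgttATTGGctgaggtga
Cdc6 (chr11:98907951-98908150, plus strand): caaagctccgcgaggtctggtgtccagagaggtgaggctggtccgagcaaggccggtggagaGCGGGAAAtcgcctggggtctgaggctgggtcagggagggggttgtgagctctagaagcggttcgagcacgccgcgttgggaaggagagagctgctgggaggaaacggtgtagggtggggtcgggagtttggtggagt
Plk1 (chr7:122159235-122159434, plus strand): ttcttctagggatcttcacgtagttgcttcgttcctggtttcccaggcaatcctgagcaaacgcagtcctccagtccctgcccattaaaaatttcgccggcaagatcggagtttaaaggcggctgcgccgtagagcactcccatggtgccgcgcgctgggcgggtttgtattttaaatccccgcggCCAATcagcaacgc
Ccnb2 (chr9:70421555-70421754, minus strand): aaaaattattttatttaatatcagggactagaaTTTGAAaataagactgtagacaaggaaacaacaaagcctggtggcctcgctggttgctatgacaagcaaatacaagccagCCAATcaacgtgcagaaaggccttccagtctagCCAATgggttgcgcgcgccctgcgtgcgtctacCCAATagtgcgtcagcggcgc
Mki67 (chr7:135716380-135716579, minus strand): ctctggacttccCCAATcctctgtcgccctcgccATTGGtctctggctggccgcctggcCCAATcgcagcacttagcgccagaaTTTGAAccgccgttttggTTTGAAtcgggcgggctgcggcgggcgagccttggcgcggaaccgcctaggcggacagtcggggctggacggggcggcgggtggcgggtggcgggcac
Top2a (chr11:99024190-99024389, minus strand): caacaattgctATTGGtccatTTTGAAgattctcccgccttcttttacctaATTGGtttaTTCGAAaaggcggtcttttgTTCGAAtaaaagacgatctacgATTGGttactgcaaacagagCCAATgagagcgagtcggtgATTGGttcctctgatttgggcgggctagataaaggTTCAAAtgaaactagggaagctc
Mcm5, Mcm6 and Cdc6 show E2F letters in the stretch printed, Ccnb2, Mki67 and Top2a show CHR letters, and Plk1 shows CCAAT alone. The full 300-base window of Plk1 also holds 1 CHR match, outside the stretch printed.

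Across the 7 groups most members were low in naive cells, low to intermediate in both lesion groups at days 20 to 21 and high in both lesion groups at days 8 to 9 and in both cultured groups. The group with the highest mean was TOX-GFP for 24 members, marker-high for 21, GFP for 2, marker-low for 1 and naive for 1. The lowest mean lay in naive cells for 34 members and in late SV40-I cells for 10. In bulk libraries a lower level in fewer cycling cells cannot be told apart from less RNA per cell.

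**Figure D1:**
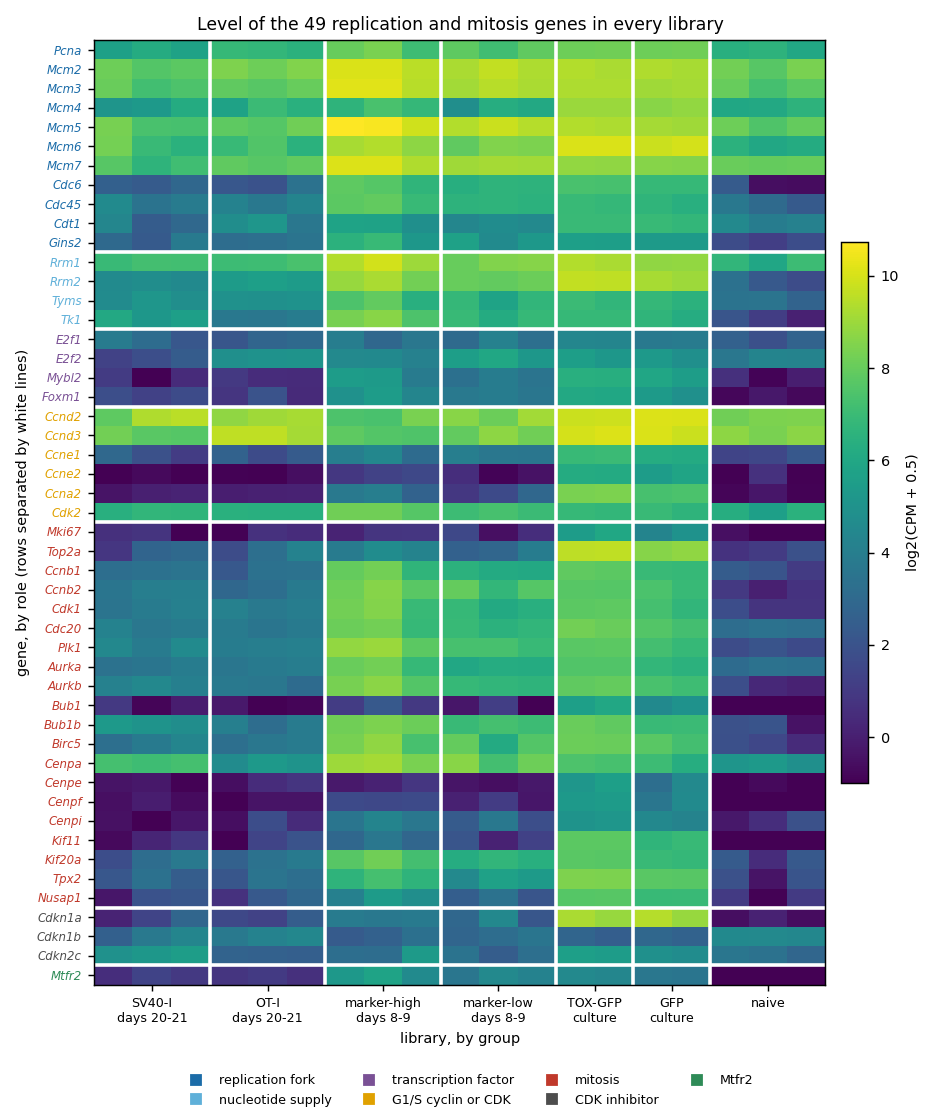
Level of all 49 members in each of the 19 libraries, as log2(CPM + 0.5), with libraries grouped along the horizontal axis and genes grouped by role along the vertical axis. Marker-high and cultured columns are the brightest for most rows, while Mki67, Ccne2, Bub1, Cenpe and Cenpf are brightest in the cultured columns.

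Adding up levels per kilobase (RPKM) within the roles set replication apart from mitosis. The 15 replication members summed to 242 to 394 RPKM in late SV40-I libraries, 367 to 385 in late OT-I libraries and 264 to 346 in naive libraries, so late SV40-I libraries overlapped both other groups and all late OT-I libraries lay above all naive ones. They summed to 1152 to 2069 RPKM in marker-high libraries, 912 to 1030 in marker-low libraries, 1509.7 to 1552 in TOX-GFP libraries and 1277 to 1296 in GFP libraries. The 20 mitosis members summed to 81.3 to 91.7 RPKM in late SV40-I libraries, 46.1 to 61.7 in late OT-I libraries and 19.9 to 22.8 in naive libraries. Here the 3 groups did not overlap. Without Cenpa, a choice made after seeing the data, late SV40-I (55.6 to 65.1 RPKM) and late OT-I libraries (41.9 to 56.2 RPKM) did overlap, and both stayed above naive libraries (14.99 to 16.96 RPKM). They summed to 702 to 1499.6 RPKM in marker-high libraries, 418 to 612 in marker-low libraries, 1133 to 1156 in TOX-GFP libraries and 627 to 739 in GFP libraries.

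The ratio of the mitosis sum to the replication sum was 0.207 to 0.352 in late SV40-I, 0.126 to 0.16 in late OT-I, 0.609 to 0.725 in marker-high, 0.406 to 0.671 in marker-low, 0.745 to 0.75 in TOX-GFP, 0.491 to 0.57 in GFP and 0.0626 to 0.0825 in naive libraries. Naive and late SV40-I libraries overlapped in the replication sum and not in the mitosis sum. The 6 MCM genes made up most of the naive replication sum, with 206 to 281 RPKM.

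**Figure D2:**
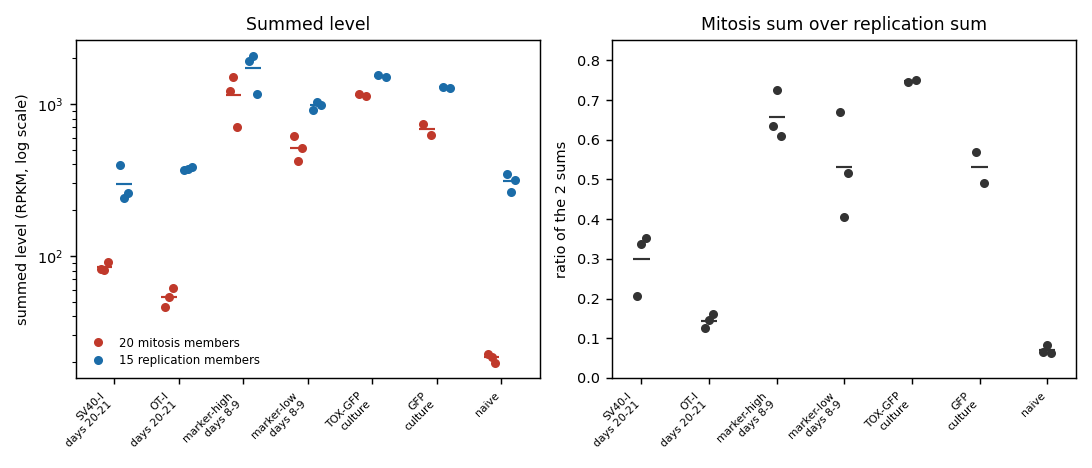
Left, summed level in RPKM (log axis) of the 20 mitosis members (red) and the 15 replication members (blue) in each library, with lines at group means. Right, the ratio of the 2 sums, which is lowest in the naive libraries (0.0626 to 0.0825) and highest in the TOX-GFP libraries (0.745 to 0.75).

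Among the genes of the replication fork, the MCM helicase subunits were well expressed everywhere. Mcm5 had 320.5, 164 and 158 CPM in late SV40-I, 229.9, 202 and 289.8 in late OT-I, 1706, 1587 and 941 in marker-high, 668, 879.7 and 679.8 in marker-low, 666 and 629 in TOX-GFP, 574 and 534 in GFP and 281, 181 and 249 in naive libraries. All marker-high values lay above every other library, and the late and naive values overlapped. Over the 6 MCM genes single values ran from 34.4 to 320.5 CPM in late SV40-I, 54.6 to 369 in late OT-I, 99.5 to 1706 in marker-high, 27.1 to 879.7 in marker-low, 445 to 1065 in TOX-GFP, 374 to 1014 in GFP and 62.9 to 333 in naive libraries. Mcm4 did not follow Mcm5, with 99.5, 162 and 113 CPM in marker-high and 404 and 453 CPM in GFP libraries, all marker-high values being the lower ones.

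Pcna, the sliding clamp of the polymerases, had 50.6, 74.2 and 54.5 CPM in late SV40-I, 115, 108 and 90.6 in late OT-I, 259, 334 and 136 in marker-high, 229, 139.8 and 230.1 in marker-low, 285 and 294 in TOX-GFP, 285 and 289 in GFP and 85.5, 95.6 and 64.5 in naive libraries. Of the 6 early libraries the second marker-high one alone reached the cultured values, and every early and cultured value lay above all late and naive ones. Cdc6, which loads the MCM helicase onto origins, was nearly absent outside those groups. It had 5.53, 4.65 and 7.16 CPM in late SV40-I, 4.07, 3.43 and 10.2 in late OT-I, 229, 198 and 102 in marker-high, 80.6, 98.6 and 95.5 in marker-low, 167 and 158 in TOX-GFP, 115 and 118 in GFP and 4.73, 0.175 and 0.153 in naive libraries. The single naive library at 4.73 CPM stood apart from its 2 partners. Gins2, which joins Cdc45 and MCM in the active helicase, had 7.56, 4.47 and 13.4 CPM in late SV40-I, 8.58, 9.38 and 11 in late OT-I, 91.5, 119.8 and 36.1 in marker-high, 52.3, 24.3 and 38.3 in marker-low, 49.4 and 47.4 in TOX-GFP, 41.8 and 41.8 in GFP and 2.81, 1.77 and 2.88 in naive libraries.

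Of the nucleotide genes, Rrm2, the regulated subunit of ribonucleotide reductase, had 24.4, 26.4 and 23.4 CPM in late SV40-I, 43.5, 48.6 and 43.0 in late OT-I, 481, 616 and 305 in marker-high, 258, 243 and 275 in marker-low, 808 and 781 in TOX-GFP, 584 and 511 in GFP and 10.0, 4.43 and 2.79 in naive libraries. Both late groups lay above all naive libraries and below all early and cultured ones, and the late groups did not overlap each other. Tk1, the thymidine kinase of S phase, had 67.9, 36.9 and 48.8 CPM in late SV40-I, 12.6, 12.2 and 14.9 in late OT-I, 326, 401 and 173 in marker-high, 121, 74.3 and 117 in marker-low, 116 and 115 in TOX-GFP, 103 and 77.2 in GFP and 3.74, 1.69 and 0.546 in naive libraries. It was the one nucleotide gene with late SV40-I above late OT-I in every library.

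The transcription factors did not move as a block. Foxm1, a driver of mitotic genes, had 3.04, 1.92 and 2.70 CPM in late SV40-I, 1.27, 3.54 and 0.808 in late OT-I, 30.3, 44.8 and 19.5 in marker-high, 12.7, 14.8 and 11.7 in marker-low, 67.2 and 63.1 in TOX-GFP, 42.1 and 29.3 in GFP and 0.0775, 0.351 and 0.0873 in naive libraries. Mybl2, which acts with Foxm1 on mitotic genes, was likewise highest in TOX-GFP libraries, at 84.5 and 82.6 CPM, and had 44.6, 41.3 and 14.3 CPM in marker-high and 1.53, 0 and 0.846 CPM in late SV40-I libraries. E2f2, an activator of S-phase genes, had 1.95, 3.08 and 4.79 CPM in late SV40-I, 28.0, 31.4 and 31.8 in late OT-I, 22.3, 23.3 and 17.1 in marker-high, 47.0, 62.7 and 37 in marker-low, 46.6 and 36.7 in TOX-GFP, 39.6 and 28.7 in GFP and 12.2, 19 and 18.8 in naive libraries. Its late SV40-I values lay below every other library, naive ones included. E2f1, another activator, ranged over 3.15 to 20.1 CPM over all 19 libraries.

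Of the cyclins, the D types were abundant in resting and dividing groups alike. Ccnd2 (cyclin D2) had 229.8, 653 and 738 CPM in late SV40-I, 436, 534 and 589.7 in late OT-I, 177, 164 and 327 in marker-high, 405, 277 and 547 in marker-low, 883 and 906 in TOX-GFP, 1126 and 1071 in GFP and 290.0, 342 and 358 in naive libraries. Ccnd3 (cyclin D3) had 302, 211 and 200.1 CPM in late SV40-I, 781, 794 and 579 in late OT-I, 224, 192 and 182 in marker-high, 242, 429 and 289 in marker-low, 1013 and 1123 in TOX-GFP, 1075 and 899 in GFP and 428, 331 and 419 in naive libraries. Marker-high cells, which had the highest mean Mcm5 level, had the lowest Ccnd3 of the 7 groups by mean, and all their Ccnd3 values lay below all naive values. Ccna2 (cyclin A2, needed in S phase and G2) had 0.259, 0.517 and 0.619 CPM in late SV40-I, 0.498, 0.567 and 0.595 in late OT-I, 12.8, 15.9 and 5.90 in marker-high, 1.36, 2.61 and 7.15 in marker-low, 331 and 344 in TOX-GFP, 162 and 168 in GFP and 0.0581, 0.329 and 0.0218 in naive libraries. Cultured values stood far above all sorted ones, and Ccne2 (cyclin E2) behaved alike, with 0 to 2.45 CPM in the 15 sorted libraries and 44.6 to 74.1 CPM in the 4 cultured ones.

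Mitotic regulators differed in where they were highest. Plk1, the kinase that drives mitotic entry and spindle assembly, had 21.9, 14.5 and 23.8 CPM in late SV40-I, 14.6, 15.5 and 16.9 in late OT-I, 462, 508 and 221 in marker-high, 161, 162 and 120.5 in marker-low, 209.6 and 217 in TOX-GFP, 148 and 118 in GFP and 2.79, 3.70 and 2.62 in naive libraries. Each marker-high value lay above every value of the other groups. Aurkb, the kinase of the chromosomal passenger complex, had 17.4, 22.1 and 16.4 CPM in late SV40-I, 12.7, 12.0 and 8.17 in late OT-I, 321, 420.4 and 193 in marker-high, 117, 107 and 99.97 in marker-low, 230.2 and 247 in TOX-GFP, 167 and 137 in GFP and 3.02, 0.789 and 0.589 in naive libraries. Late SV40-I and late OT-I values lay above all naive values and did not overlap. Ccnb2 (cyclin B2) had 11.3, 15.9 and 16.3 CPM in late SV40-I, 6.97, 9.00 and 13.8 in late OT-I, 284, 393 and 214 in marker-high, 251, 108 and 202 in marker-low, 206 and 202 in TOX-GFP, 169.8 and 119 in GFP and 1.41, 0.526 and 1.16 in naive libraries. Its late values were all above naive, and the late groups overlapped.

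Mki67, whose protein Ki-67 coats mitotic chromosomes and is the usual stain for dividing cells, did not follow Plk1. It had 1.04, 1.2 and 0 CPM in late SV40-I, 0.0226, 1.11 and 0.914 in late OT-I, 0.630, 1.28 and 1.29 in marker-high, 2.43, 0.193 and 0.953 in marker-low, 44.9 and 63.5 in TOX-GFP, 19.1 and 30.9 in GFP and 0.194, 0 and 0 in naive libraries. All 15 sorted libraries lay below 3 CPM and all 4 cultured ones above 19. Top2a, the topoisomerase that untangles sister chromatids, had 1.32, 6.42 and 7.66 CPM in late SV40-I, 2.83, 9.16 and 17.7 in late OT-I, 14.3, 25.5 and 18.5 in marker-high, 5.82, 6.89 and 14.6 in marker-low, 749 and 774 in TOX-GFP, 384 and 439 in GFP and 1.12, 1.58 and 3.23 in naive libraries. Kif11, the motor that separates spindle poles, had 7.18, 12.1 and 6.77 CPM in marker-high, 3.72, 0.599 and 1.95 in marker-low, 222 and 221 in TOX-GFP and 102 and 118 in GFP libraries and was at 0 in all naive libraries. Tpx2, a spindle assembly factor, lay between these patterns, with 98.7, 157 and 97.9 CPM in marker-high, 22.8, 52.1 and 41.0 in marker-low, 354 and 348 in TOX-GFP, 212 and 208 in GFP and 3.29, 0.263 and 3.6 in naive libraries. The kinetochore genes Bub1, Cenpe and Cenpf ranged over 0 to 4.35 CPM in sorted and 8.93 to 65.5 CPM in cultured libraries. Cenpa, the histone variant that marks centromeres, behaved differently again, with 153, 134 and 156 CPM in late SV40-I, 24.7, 39.3 and 32.4 in late OT-I, 510.0, 577 and 335 in marker-high, 401, 148 and 286 in marker-low, 173 and 161 in TOX-GFP, 131 and 79.8 in GFP and 34.3, 38.8 and 28.5 in naive libraries. Late SV40-I values lay within the cultured range of this gene, and late OT-I cells overlapped naive cells.

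The CDK inhibitors each had their own order. Cdkn1a (p21) had 0.636, 2.12 and 6.73 CPM in late SV40-I, 2.44, 1.97 and 5.00 in late OT-I, 14.3, 12.5 and 13.2 in marker-high, 7.16, 22.1 and 3.92 in marker-low, 612 and 494 in TOX-GFP, 696 and 487 in GFP and 0.174, 0.592 and 0.153 in naive libraries, so that the cultured cells had by far the most. Cdkn1b (p27, an inhibitor known from resting lymphocytes) had 5.60, 12.8 and 19.6 CPM in late SV40-I, 12.8, 18.0 and 21.4 in late OT-I, 4.66, 5.68 and 9.63 in marker-high, 6.63, 8.56 and 11.5 in marker-low, 6.71 and 5.27 in TOX-GFP, 7.17 and 5.91 in GFP and 22.9, 22.7 and 21.3 in naive libraries. It was the one member with its highest mean in naive cells. Cdkn2c (p18, an inhibitor of CDK4 and CDK6) had 30.4, 36.8 and 45.9 CPM in late SV40-I, 6.20, 5.73 and 5.30 in late OT-I, 8.85, 8.78 and 41.7 in marker-high, 10.7, 4.92 and 9.22 in marker-low, 49 and 44.6 in TOX-GFP, 29.2 and 25.8 in GFP and 11.6, 10.1 and 6.92 in naive libraries. Late SV40-I values were above all late OT-I values, and the third marker-high library stood apart from its 2 partners. Mtfr2 had 0.941, 2.05 and 1.45 CPM in late SV40-I, 1.24, 1.49 and 1.04 in late OT-I, 37.4, 55.8 and 23.9 in marker-high, 11.7, 22.4 and 17.9 in marker-low, 22.2 and 20.1 in TOX-GFP, 12.2 and 11.1 in GFP and 0 in all naive libraries. Its group means stood in the same order as those of Plk1.

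**Figure D3:**
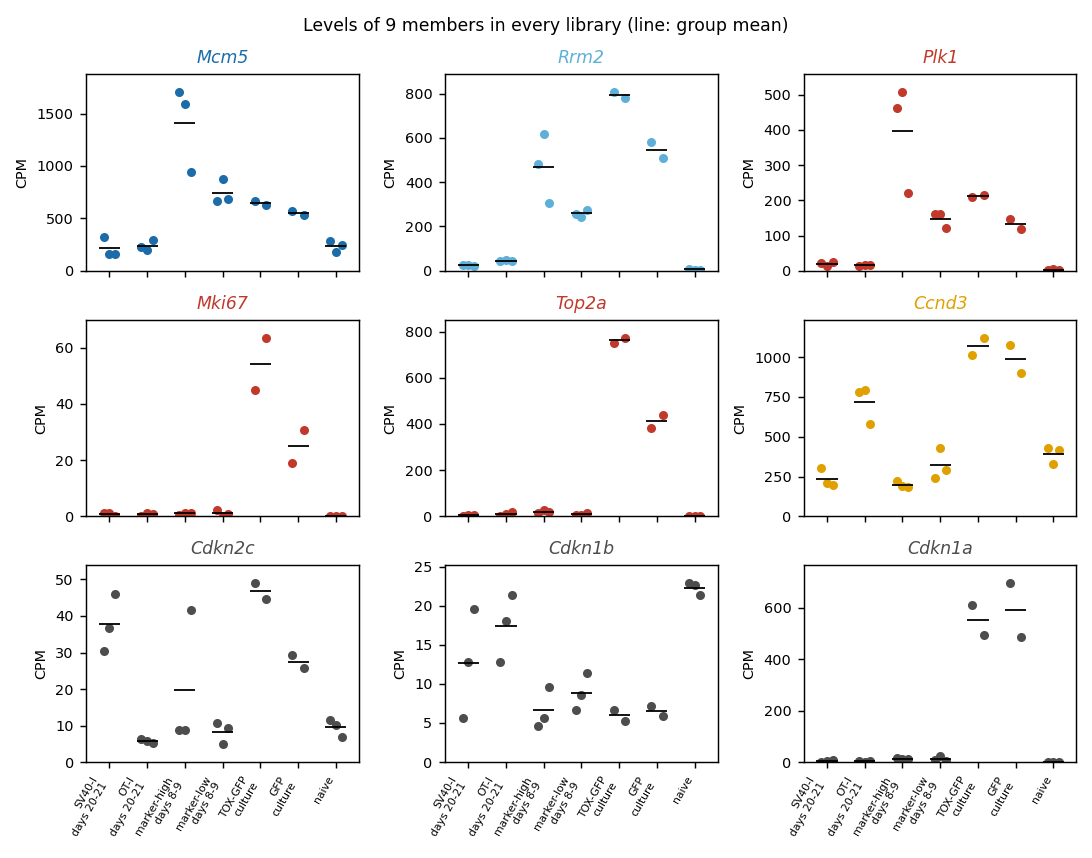
CPM of 9 members in each library, with a line at the group mean and a vertical axis from 0 in every panel. Mcm5 and Plk1 peak in marker-high libraries, Mki67, Top2a and Cdkn1a stand out in the 4 cultured libraries, and Cdkn1b is highest in the naive ones.

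Lesion cells at days 8 to 9 were compared with naive cells to see how far the programme had been switched on. In marker-high cells 37 of 49 members rose and 2 fell at an adjusted p below 0.05, beside 14.3% and 9.1% of the 16404 genes tested. The replication members rose in 13 of 15 cases (median log2 fold change 2.87) and the mitosis members in 17 of 20 (median 6.06), beside a median of 0.06 over all genes. The largest changes among called fork genes were Cdc6 (6.72 ± 1.15), Gins2 (5.08 ± 0.56) and Cdc45 (4.58 ± 0.46), while Pcna rose by 1.59 ± 0.31 and the MCM genes by 0.76 to 2.87, Mcm4 not being called. Among nucleotide genes Tk1 rose by 7.25 ± 0.67, Rrm2 by 6.37 ± 0.45 and Tyms, the thymidylate synthase, by 4.21 ± 0.42. Foxm1 (7.53 ± 0.77) and Mybl2 (6.01 ± 1.31) rose, as did Ccna2 (6.39 ± 1.00), Ccne1 (2.39 ± 0.58) and Cdk2 (1.87 ± 0.22). In mitosis, Kif11 was at least 414-fold, Cenpf at least 121-fold and Bub1 at least 118-fold higher, set against 3 counts over the naive libraries, where all 3 were at 0. Mki67 missed the threshold at 3.99 ± 1.90 (adjusted p = 0.139).

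The 2 members that fell in marker-high cells were Ccnd3 (-0.94 ± 0.23) and Cdkn1b (-1.71 ± 0.43). Cdkn1a rose by 5.46 ± 1.00, Cdkn2c was not called (1.08 ± 0.54), nor was Ccnd2 (-0.53 ± 0.38), and Mtfr2 was at least 1862-fold higher. Of the wider pathway 27 of 35 other replication genes rose, led by the ligase Lig1 (3.30 ± 0.21) and the methylation maintenance factor Uhrf1 (4.64 ± 0.33). Among 41 other mitotic genes 30 rose and 2 fell, with Kif22 at 4.2 ± 0.28 and Cdca8 at 5.70 ± 0.42. Among 22 other G1 genes 7 rose and 1 fell, namely the p19 inhibitor gene Cdkn2d (-1.93 ± 0.27), and Tfdp1, the partner of E2F proteins, rose by 2.17 ± 0.26. Macrophage markers moved with this comparison: 3 of 8 were called higher, none was at 0 in either group, and their sum was 804 to 1933 CPM in marker-high and 73.6 to 170.1 CPM in naive libraries. With that sum as a covariate 33 members rose and 0 fell, and without the first or the second marker-high library 1 fell. The part of macrophage markers was not tested otherwise. Neutrophil markers summed to 256 to 494 CPM in marker-high and 6.26 to 22.1 CPM in naive libraries. Genes listed as NK cell markers summed to 333 to 550 CPM and 10.9 to 23.4 CPM. The part of these 2 lists was not tested.

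Marker-low cells gave a similar but smaller set against the same naive libraries, with 35 members higher and 0 lower, beside 10.6% and 6.21% of genes. Replication members rose in 13 of 15 cases (median 1.82) and mitosis members in 14 of 20 (median 4.70), beside a median of 0.09 over all genes. The fork was led by Cdc6 (5.80 ± 1.1), Gins2 (4.01 ± 0.53) and Cdc45 (3.61 ± 0.44), with Pcna at 1.34 ± 0.31 and the MCM genes from -0.35 to 2.06. Tk1 rose by 5.76 ± 0.62, Rrm2 by 5.55 ± 0.44 and Tyms by 3.37 ± 0.41. E2f2 rose by 1.61 ± 0.33 here, beside Foxm1 (6.29 ± 0.73) and Mybl2 (4.52 ± 1.22), and Ccna2 (4.76 ± 0.93), Ccne1 (2.25 ± 0.57) and Cdk2 (1.01 ± 0.22) rose too. Kif11 was at least 96.8-fold, Cenpf at least 39.4-fold and Mtfr2 at least 837-fold higher than naive, and Ccnb2 rose by 7.57 ± 0.52. Mki67 was at 4.21 ± 1.92 (adjusted p = 0.143), Ccnd2 at 0.37 ± 0.38, Ccnd3 at -0.24 ± 0.23 and Cdkn1b at -1.28 ± 0.42 (adjusted p = 0.0539), none of them called, and nor was Cdkn2c (-0.14 ± 0.54). Cdkn1a rose by 5.21 ± 0.99. Of the other lists 20 of 35 replication genes rose, with Uhrf1 at 4.13 ± 0.32 and Mcm10 at 10.73 ± 0.92, and 26 of 41 mitotic genes rose and 1 fell, with Cdca8 at 4.60 ± 0.40 and Kif22 at 3.00 ± 0.26. Of 22 G1 genes 4 rose, among them Tfdp1 (1.88 ± 0.26) and the repressor E2f7, at least 244-fold above its 0 counts in naive cells. Neutrophil markers summed to 132 to 2287 CPM in marker-low and 6.26 to 22.1 CPM in naive libraries, with 3 of 6 called higher, as were 2 of 8 macrophage markers, and none was at 0 in either group. Their part in the result was not tested. The second marker-low library stood apart, with 2026 CPM of macrophage and 2287 CPM of neutrophil markers and 8159 CPM of T cell markers, against 63.8 and 457 CPM, 132 and 358 CPM, and 14838 and 15625 CPM in its 2 partners.

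Marker-high and marker-low cells were then set against each other, which sets the sort markers beside the division genes. Of the 49 members 2 rose, both mitotic kinases, and 0 fell, beside 0.475% and 0.719% of 16404 genes. Aurka, which builds the spindle poles, had 269, 304 and 115 CPM in marker-high libraries and 65.9, 76.0 and 75.2 CPM in marker-low libraries, a log2 fold change of 1.63 ± 0.30 (adjusted p = 0.0202). Plk1 changed by 1.39 ± 0.30 (adjusted p = 0.045). The direction was broad although few members were called. All 15 replication members had positive values (median 0.90), as did 19 of 20 mitosis members (median 1.42), beside a median of 0 over all genes. The libraries of the 2 groups did not overlap for 27 members higher and 2 lower, beside 9.35% and 6.93% of all genes. At an unadjusted p below 0.05, 22 members were higher and 3 lower, beside 5.6% and 5.66% of genes.

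None of the replication members was called. The smallest p belonged to Rrm1 (1.09 ± 0.28, adjusted p = 0.0877) among nucleotide and to Mcm7 (0.77 ± 0.26, adjusted p = 0.237) among fork genes, with the MCM genes at 0.48 to 1.11 and Pcna at 0.25 ± 0.30. E2f2 (-1.26 ± 0.32, adjusted p = 0.0908), Ccnd2 (-0.90 ± 0.38) and Ccnd3 (-0.70 ± 0.23) had negative values without being called, and Cdk2 (0.86 ± 0.22, adjusted p = 0.0862) a positive one. Mki67 had -0.22 ± 1.64, Cdkn1a 0.25 ± 0.81, Cdkn1b -0.43 ± 0.42, Cdkn2c 1.22 ± 0.54 and Mtfr2 1.15 ± 0.39, none called. Of the other lists, 2 replication genes rose, the primase subunit Prim2 (1.2 ± 0.20) and Lig1 (1.18 ± 0.20), and 2 mitotic genes, Kif22 (1.2 ± 0.25) and Incenp (0.95 ± 0.21), the scaffold of the Aurora B complex. Among G1 genes Cdkn2d fell (-1.43 ± 0.27) and Rbl2 missed the threshold (2.51 ± 0.62, adjusted p = 0.079). The third marker-high library had the lowest value of its group for 36 of 49 members, and without it 4 members were called higher, while leaving out any other of the 6 libraries left 0. That library also had 1370.2 CPM of erythroid and platelet markers, against 111 and 130.3 CPM in its 2 partners, and their part was not tested. Macrophage markers summed to 804 to 1933 CPM in marker-high and 63.8 to 2026 CPM in marker-low libraries, with 0 of 8 called. With their sum as a covariate 0 members were called, and their part in the result was not tested otherwise. Neutrophil markers summed to 256 to 494 CPM in marker-high and 132 to 2287 CPM in marker-low libraries. The second marker-low library had the highest macrophage and neutrophil and the lowest T cell sum of the 6. The part of neutrophil transcripts was not tested.

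Cultured TOX-GFP cells were compared with GFP cells to ask what TOX does in the same setting, and mitotic transcripts differed more than replication transcripts. With 2 libraries a group, edgeR called 0 members and 0 of 14614 genes (0% higher and 0% lower). At an unadjusted p below 0.05 it found 31 members higher and 1 lower, beside 8.32% and 4.72% of all genes, and DESeq2 called 26 members higher and 0 lower, beside 2.86% and 0.972% of genes, 17 of them mitosis and 3 replication members. All 20 mitosis members were higher in both TOX-GFP libraries than in both GFP libraries, as were 40 of 49 members, with 1 lower, beside 24.3% and 23% of genes. The median log2 fold change was 0.80 over the mitosis members and 0.22 over the replication members, beside 0.01 over all genes. Without either GFP library edgeR called some members higher, with 1 GFP library left and its spread taken from the other group. Without either TOX-GFP library it called 0. The share of all genes called in these fits is not given, so they are not read as a result about the members.

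Top2a had 749 and 774 CPM in TOX-GFP libraries and 384 and 439 CPM in GFP libraries, both of the first above both of the second. The mitosis member with the smallest p was Ccnb1 (cyclin B1), with 231 and 223 CPM in TOX-GFP libraries and 123 and 115 CPM in GFP libraries (0.93 ± 0.11, adjusted p = 0.207). Mki67 was at 1.11 ± 0.28 (adjusted p = 0.252), and Ccna2 at 1.03 ± 0.10 (adjusted p = 0.207). The replication members were all positive but smaller, the largest being Rrm2 (0.54 ± 0.11), with a median of 0.43 over the 4 nucleotide genes, and DESeq2 called Cdc6, Rrm1 and Rrm2. Pcna was at 0.01 ± 0.10, the MCM genes at 0.07 to 0.24, Cdc6 at 0.48 ± 0.11 and Rrm1 at 0.49 ± 0.10. Foxm1 was at 0.87 ± 0.20 (adjusted p = 0.245), Cdkn2c at 0.76 ± 0.15 and Mtfr2 at 0.86 ± 0.18, while Ccnd2 (-0.30 ± 0.10), Cdkn1a (-0.10 ± 0.20) and Cdkn1b (-0.13 ± 0.26) had negative and Ccnd3 (0.11 ± 0.13) a slightly positive value. The other lists showed the same contrast of medians, 0.72 for mitotic, 0.25 for replication and 0.39 for G1 genes, with 0 called in each. Their members with the smallest p were Hmmr (1.27 ± 0.13) and Prc1 (0.98 ± 0.12), Chaf1a (0.73 ± 0.12) and Dbf4 (0.65 ± 0.13), and Cdc25a (0.60 ± 0.13) and E2f6 (0.55 ± 0.14). Macrophage and hepatocyte markers were near 0 in both cultured groups, at most 0.608 and 0.48 CPM in sum.

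The marker-high effect and the TOX effect were compared by an interaction term over all 19 libraries, the log2 fold change of marker-high over marker-low cells minus that of TOX-GFP over GFP cells. It called 0 members in either direction, beside 0.00537% and 0.0215% of 18608 genes, and at an unadjusted p below 0.05 had 1 member higher and 2 lower, beside 1.63% and 3.12% of genes. The member nearest to a call was E2f2 (-1.60 ± 0.49, adjusted p = 0.599), followed in their roles by Ccnd3 (-0.87 ± 0.33), Aurka (0.66 ± 0.42), Tk1 (1.07 ± 0.75), Mcm4 (0.83 ± 0.58) and Cdkn1b (-0.36 ± 0.64). The MCM genes ran from 0.36 to 0.83, and Pcna was at 0.18 ± 0.45, Mki67 at -1.38 ± 2.0, Ccnd2 at -0.66 ± 0.57, Cdkn1a at 0.30 ± 1.1, Cdkn2c at 0.41 ± 0.80 and Mtfr2 at 0.23 ± 0.57. In the other lists Prim2 (0.95 ± 0.30) and Lig1 (0.89 ± 0.29), Cdc25b (-1.29 ± 0.32) and Ndc80 (3.23 ± 1.40), and Cdkn2d (-1.62 ± 0.39) and Rbl2 (2.18 ± 0.87) had the smallest p, none called. A missed threshold does not show that the effects are alike.

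**Figure D4:**
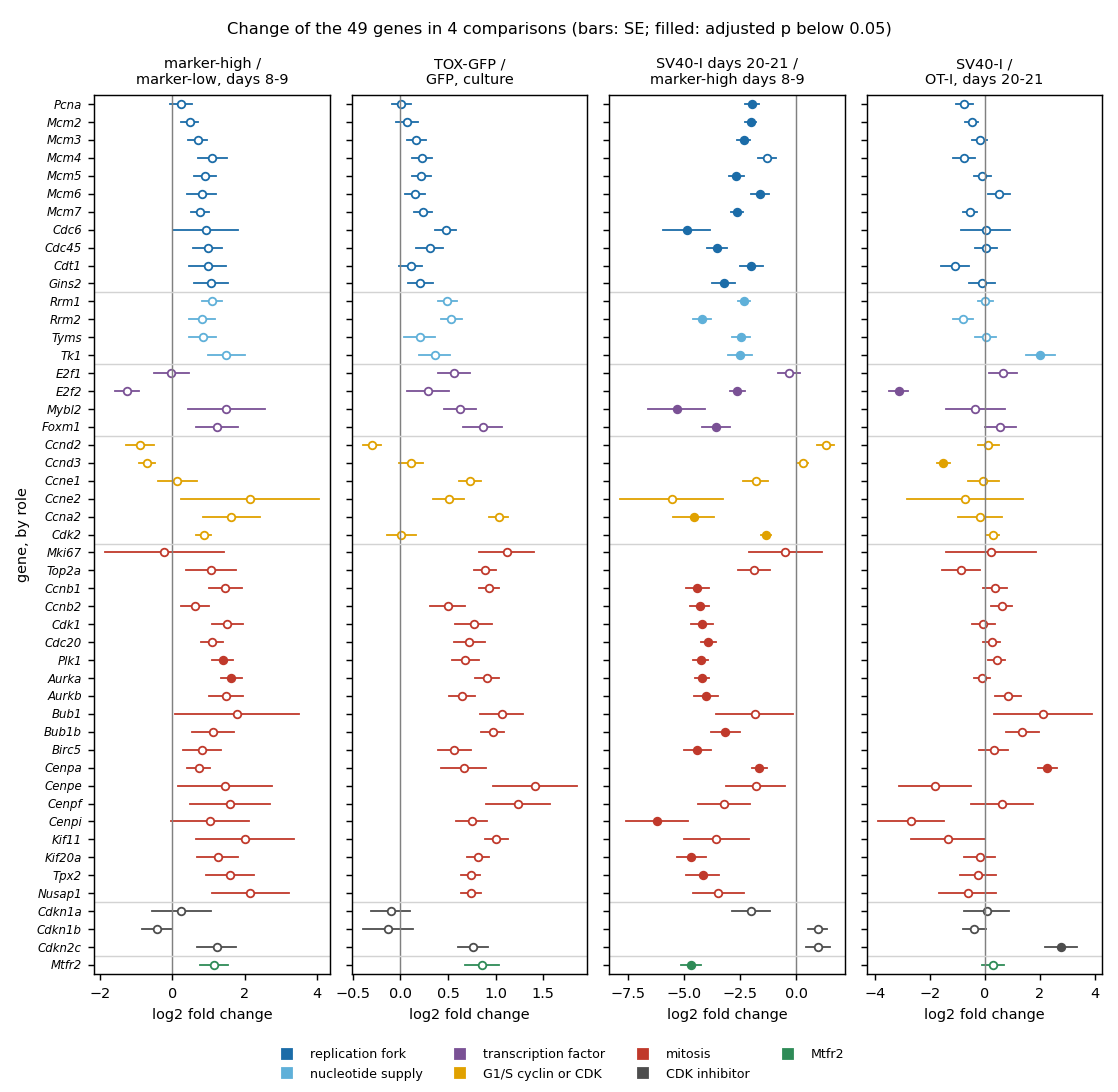
Log2 fold change of each member in 4 comparisons, with bars of 1 standard error and filled points at an adjusted p below 0.05. Horizontal axes differ between panels. Of the 49 points 43 are positive in the first panel and 46 in the second, 45 are negative in the third, and 5 are filled in the fourth.

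By days 20 to 21 most of the programme was lower in SV40-I cells than in marker-high cells at days 8 to 9. Of the 49 members 33 fell and 0 rose, beside 3.57% and 1.76% of genes, among them 14 of 15 replication members (median -2.47) and 13 of 20 mitosis members (median -3.96), beside a median of 0.04 over all genes. The fork genes that fell most were Cdc6 (-4.88 ± 1.05), Cdc45 (-3.52 ± 0.44) and Gins2 (-3.22 ± 0.51), with Pcna at -1.98 ± 0.32 and the MCM genes at -2.66 to -1.28. Rrm2 (-4.19 ± 0.41), Tk1 (-2.49 ± 0.53) and Tyms (-2.47 ± 0.39) fell, as did Mybl2 (-5.33 ± 1.26), Foxm1 (-3.57 ± 0.63), E2f2 (-2.62 ± 0.34), Ccna2 (-4.57 ± 0.90) and Cdk2 (-1.36 ± 0.22). Called mitosis genes with the largest changes were Cenpi (-6.22 ± 1.38), Kif20a (-4.67 ± 0.65), a kinesin of cytokinesis, and Birc5 (-4.40 ± 0.60), the survivin gene. Mtfr2 fell by 4.68 on the log2 scale.

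The members not called in this comparison included the brakes and the D cyclins. Ccnd2 was at 1.32 ± 0.39 (adjusted p = 0.0679), Ccnd3 at 0.30 ± 0.23, Cdkn1b at 0.97 ± 0.42, Cdkn2c at 0.98 ± 0.54 and Cdkn1a at -2.02 ± 0.85 (adjusted p = 0.188), and Mki67, low in both groups, was at -0.47 ± 1.65. Of the other lists 23 of 35 replication genes fell, led by Lig1 (-2.67 ± 0.21) and Uhrf1 (-3.69 ± 0.32), 22 of 41 mitotic genes fell, led by Kif22 (-3.82 ± 0.27) and Cdca8 (-3.92 ± 0.38), and 2 of 22 G1 genes fell, Tfdp1 (-2.0 ± 0.26) and Cdk4 (-1.03 ± 0.23), the partner of the D cyclins. Macrophage markers were lower too, at 27.7 to 269 CPM in late SV40-I and 804 to 1933 CPM in marker-high libraries, with 1 of 8 called, and with their sum as a covariate 22 members fell. Hepatocyte markers summed to 31.4 to 1338 CPM in late SV40-I and 8.26 to 20.6 CPM in marker-high libraries. Without the 3 libraries richest in hepatocyte markers at days 20 to 21, 24 fell. Late cells were also not sorted by the surface markers, so time and sort cannot be told apart.

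Late SV40-I cells still differed from naive cells, in mitotic, nucleotide and inhibitor genes. They had 19 members higher and 1 lower, beside 11.1% and 6.86% of genes. Mitosis members rose in 10 of 20 cases (median 2.65), replication members in 5 of 15 (median 0.58), 3 of them among the 4 nucleotide genes, beside a median of 0.05 over all genes, and among the MCM genes Mcm6 alone was called (1.27 ± 0.41), the rest lying between -0.72 and -0.02. Gins2 rose (1.86 ± 0.49), Pcna did not (-0.38 ± 0.30). Tk1 (4.76 ± 0.60), Rrm2 (2.18 ± 0.38) and Tyms (1.74 ± 0.38) rose, and so did Foxm1 (3.96 ± 0.67), whereas E2f2 fell (-2.27 ± 0.34), and 4 members fell without the first late SV40-I library. Of the mitosis members Ccnb2 rose by 3.89 ± 0.44, Kif11 was at least 34.8-fold and Cenpf at least 13.1-fold higher, both from under 2 CPM, and Mtfr2 was at least 72.6-fold higher. Cdkn1a (3.43 ± 0.92) and Cdkn2c (2.06 ± 0.56) rose, while Cdkn1b (-0.74 ± 0.42), Ccnd3 (-0.64 ± 0.23, adjusted p = 0.0707), Ccnd2 (0.78 ± 0.38) and Mki67 (3.51 ± 1.87, adjusted p = 0.207) were not called.

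Late OT-I cells showed a set of like size against the same naive libraries, 16 members higher and 0 lower, beside 5.06% and 2.29% of genes. Mitosis members rose in 8 of 20 cases (median 2.43) and replication members in 4 of 15 (median 0.57), beside a median of 0.04 over all genes, with 0 of 6 MCM genes called (-0.16 to 0.75) and Pcna at 0.37 ± 0.30. Gins2 (1.98 ± 0.49), Rrm2 (2.98 ± 0.39), Tk1 (2.74 ± 0.55), Tyms (1.72 ± 0.38) and Foxm1 (3.40 ± 0.66) rose. Ccnb2 rose by 3.28 ± 0.43, Kif11 was at least 92.2-fold, Cenpf at least 8.55-fold and Mtfr2 at least 59.1-fold higher, and Ccnd3 (0.89 ± 0.23) and Cdkn1a (3.37 ± 0.92) rose. In the late OT-I libraries Kif11 had only 0, 2.16 and 3.57 CPM and Cenpf 0, 0.270 and 0.276 CPM. The first library was thus at 0 for both genes, like the naive libraries. Mki67 (3.29 ± 1.86, adjusted p = 0.337), Ccnd2 (0.67 ± 0.38), Cdkn1b (-0.35 ± 0.41) and Cdkn2c (-0.72 ± 0.54) were not called. In the wider lists late SV40-I cells had 7 replication genes higher and 2 lower, 13 mitotic genes higher and 2 lower, and 5 G1 genes higher and 1 lower than naive cells, with Rpa2 at 2.25 ± 0.22, Mcm10 at 7.31 ± 0.86, Kif23 at -4.73 ± 0.67, Incenp at 1.3 ± 0.21, Cdkn2d at -2.29 ± 0.28 and Cdk6 at 4.33 ± 0.64. Late OT-I cells had 4 and 0, 11 and 2, and 1 and 0 genes higher and lower in the same lists, with Mcm10 at 7.64 ± 0.86, Uhrf1 at 1.47 ± 0.29, Racgap1 at 2.47 ± 0.22, Kif23 at -3.67 ± 0.64, Trp53 at -0.49 ± 0.15 and E2f7 at least 105-fold higher. All 9 hepatocyte markers tested were called higher in both late groups, with sums of 31.4 to 1338 CPM in late SV40-I, 15.2 to 1593 CPM in late OT-I and 2.20 to 5.62 CPM in naive libraries, and none was at 0 in any of the 3 groups. Erythroid and platelet markers summed to 98.9 to 784 CPM in late SV40-I, 1295 to 3611 CPM in late OT-I and 30.7 to 300.5 CPM in naive libraries, with 0 of 8 called higher and 1 lower in late SV40-I and 2 higher in late OT-I cells, and their part was not tested. The 3 libraries richest in hepatocyte markers were the second of late SV40-I and the second and the third of late OT-I. Leaving them out left 15 late SV40-I members higher in place of 19. It left 1 late OT-I library, and fewer OT-I members than 16 were then higher. The OT-I count was 9 without the third naive library and 10 without the third late OT-I library. The part of hepatocyte transcripts was not tested otherwise.

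Directly compared, the late groups differed in few members. Late SV40-I cells had 3 members higher and 2 lower than late OT-I cells, beside 4.91% and 4.11% of genes, and the other 44 were not called. Members were thus called about as often as genes at large, so these counts do not set the members apart from other genes. Higher were the inhibitor Cdkn2c (2.77 ± 0.57, adjusted p = 0.00836), the centromere gene Cenpa (2.27 ± 0.33, adjusted p = 8.65e-04) and Tk1 (2.01 ± 0.53, adjusted p = 0.0305). Lower were E2f2 (-3.15 ± 0.35, adjusted p = 1.17e-04) and Ccnd3 (-1.53 ± 0.23, adjusted p = 0.00119). Replication members had a median of -0.12 and mitosis members of 0.23, beside -0.04 over all genes, with the MCM genes at -0.78 to 0.51, Pcna at -0.75 ± 0.31 (adjusted p = 0.163), Mki67 at 0.22 ± 1.65, Ccnd2 at 0.11 ± 0.38, Cdkn1a at 0.06 ± 0.82, Cdkn1b at -0.40 ± 0.41 and Mtfr2 at 0.29 ± 0.40. In the other lists Rpa2 (1.16 ± 0.22), Rfc2 (0.92 ± 0.20) and Cdk6 (3.08 ± 0.60), a partner of D cyclins, rose, and Racgap1 (-1.55 ± 0.21), Cdc25b (-1.32 ± 0.21) and Cdkn2d (-1.75 ± 0.27) fell. Without the 3 hepatocyte-rich libraries the counts were 0 higher and 1 lower, with 1 OT-I library left.

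Cultured GFP cells, set against naive cells, showed most of the programme. They had 43 members higher and 1 lower, beside 17.6% and 15% of 18608 genes, with 20 of 20 mitosis members (median 6.06) and 14 of 15 replication members (median 2.29) higher, beside a median of 0 over all genes. Kif11 was at least 5250-fold, Bub1 at least 1301-fold and Cenpf at least 849.5-fold higher, and Mtfr2 at least 557-fold. Cdc6 rose by 5.72 ± 1.03, Gins2 by 3.70 ± 0.50 and Mcm6 by 3.24 ± 0.42, the MCM genes spanned 0.18 to 3.24 and Pcna was at 1.43 ± 0.31. Rrm2 (6.19 ± 0.43), Tk1 (5.1 ± 0.58), Tyms (3.08 ± 0.40), Foxm1 (7.29 ± 0.71), Mybl2 (6.30 ± 1.18), Ccna2 (9.84 ± 0.89), Ccne2 (6.74 ± 1.66) and Ccne1 (4.29 ± 0.57) rose. Mki67 rose by 8.11 ± 1.80 (adjusted p = 0.00265), Cdkn1a by 10.52 ± 1.09, Ccnd2 by 1.36 ± 0.40 and Ccnd3 by 0.96 ± 0.23, while Cdkn1b was the member that fell (-2.15 ± 0.49) and Cdkn2c was not called (1.14 ± 0.56). Of the wider lists 20 replication genes rose and 2 fell, 36 mitotic genes rose and 3 fell, and 14 of 23 G1 genes rose and 2 fell, with Mcm10 at 10.95 ± 0.87, Uhrf1 at 3.61 ± 0.30, Spc25 at 5.34 ± 0.44, Nuf2 at 5.59 ± 0.47, Tfdp1 at 3.13 ± 0.26 and Cdk6 at 6.82 ± 0.66. Culture, transduction and the making of the libraries cannot be told apart in this comparison.

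Set against cultured GFP cells, marker-high cells were higher for some members and far lower for others. They had 15 members higher and 12 lower, beside 17.8% and 16.8% of genes, with a median of 1.05 for replication, 0.97 for mitosis members and 0.05 for all genes. Higher were Mcm5 (1.71 ± 0.33), Mcm7 (1.68 ± 0.28), Cdc45 (1.43 ± 0.43), Tk1 (2.10 ± 0.57), Rrm1 (1.05 ± 0.29) and Mtfr2 (2.10 ± 0.44), while Pcna was at 0.12 ± 0.32 and the MCM genes spanned -1.41 to 1.71. Of the 20 mitosis members 6 rose (Cenpa, Plk1, Aurka, Ccnb2, Aurkb and Cdk1) and 5 fell, Mki67 (-4.18 ± 1.48, adjusted p = 0.0398), Top2a (-4.04 ± 0.72, adjusted p = 5.45e-04), Cenpe (-4.01 ± 1.08, adjusted p = 0.00948), Kif11 (-3.30 ± 1.14) and Cenpf (-2.44 ± 0.89). Among cyclins Ccne2 (-4.34 ± 1.49), Ccna2 (-3.48 ± 0.67), Ccnd3 (-1.94 ± 0.23), Ccne1 (-1.93 ± 0.53) and Ccnd2 (-1.93 ± 0.40) fell, and Cdkn1a fell by 5.1 on the log2 scale. E2f2 (-0.34 ± 0.34), Cdkn1b (0.40 ± 0.46) and Cdkn2c (-0.10 ± 0.56) were not called. In the wider lists 15 replication genes rose and 3 fell, 10 mitotic genes rose and 5 fell, and 2 G1 genes rose and 8 fell, with Rpa2 at 2.24 ± 0.25, Rfc2 at 1.91 ± 0.23, Cdc25b at 2.27 ± 0.25, the condensin gene Smc4 at -5.56 ± 0.65, Cdk6 at -3.65 ± 0.58 and Trp53 at 0.86 ± 0.16. Without either GFP library 8 members were higher, and 5 were lower without the second GFP library and 7 without the first marker-high library. Macrophage markers summed to 804 to 1933 CPM in marker-high and 0.248 to 0.392 CPM in GFP libraries, with 7 of 8 called higher, and their part was not tested.

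Many, not all, of the members low in sorted cells have transcripts poor in G and C or long. The longest coding transcripts of Ccne2, Bub1, Nusap1, Kif11, Cenpi, Cenpe, Cenpf and Top2a have 36.3% to 43.4% of G and C, against 56.0% for Plk1, 51.4% for Aurka and a median of 50.2% over 8482 expressed genes, and those of Cenpf (11130 bases), Mki67 (10061 bases) and Cenpe (7910 bases) are long. Mki67 (46.6%) and Ccna2 (46.1%) lie nearer to that median, and Cdkn1a (54.4%), also far lower in sorted cells, lies above it. Over the 20 mitosis members the log2 fold change between marker-high and GFP cells had a rank correlation of 0.689 with GC content and of -0.740 with transcript length, and over all 49 members of 0.306 and -0.424. These points share the same libraries, so the values describe them and carry no test. The 7 mitosis members under 44% GC (a limit chosen after seeing the values) held 1.13% to 4.00% of the CPM of all 20 in the 9 SV40-I lesion libraries and 26.2% to 33.4% in the 4 cultured libraries, with 3.18% to 14.8% in late OT-I and 3.35% to 11.3% in naive libraries. Over 8482 genes, members not excluded, the rank correlation of level with GC content was 0.13 to 0.364 in the 15 sorted libraries. It was -0.0755 to 0.0312 in the 4 cultured ones, so the same direction appeared over this wider set. The rank correlation with transcript length was -0.36 to -0.0753 in sorted and -0.0996 to -0.0258 in cultured libraries, and these ranges overlap.

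With GC content and length as an offset in the fit, an alternative added after seeing the data, 6 members in place of 12 were lower in marker-high than in GFP cells, 5 of them shared. Cenpf turned to 0.21, the one called value that changed sign, and Mki67 (-2.35, adjusted p = 0.192) lost its call, while Top2a (-2.11, adjusted p = 0.00282) and Ccna2 (-2.95, adjusted p = 9.96e-04) kept theirs. All 49 members had a transcript for this check, but 70.6% of the 18608 genes did, so the check is incomplete over all genes and the fit was limited to those 13139. The part of transcript composition in the low Mki67 and Top2a of sorted cells was not tested further.

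**Figure D5:**
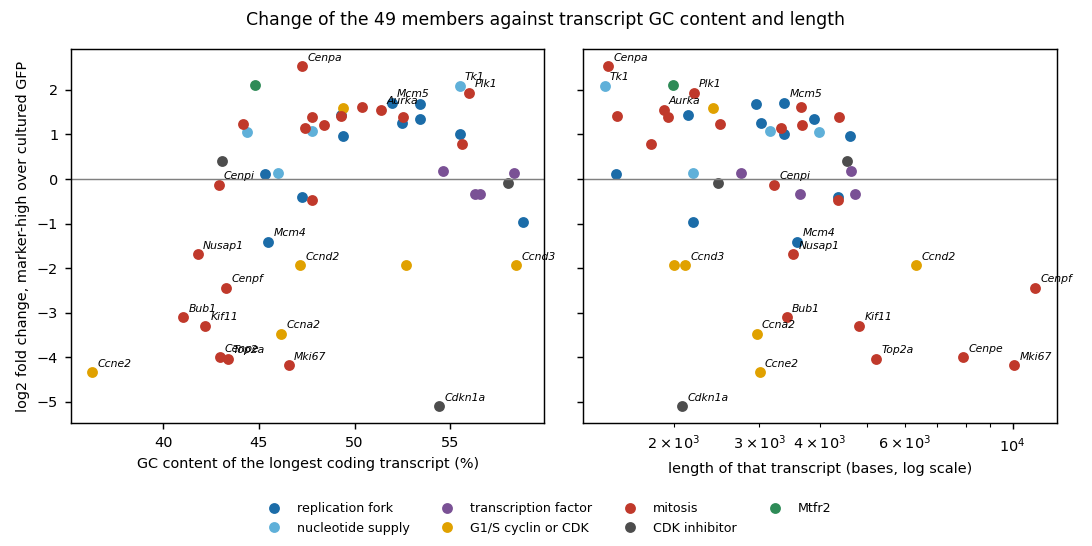
Log2 fold change of the 49 members between marker-high and cultured GFP cells against the GC content (left) and the length (right, log axis) of the longest coding transcript, coloured by role. Mitosis members under 44% GC all lie at or below -0.13, and Cdkn1a (-5.1) and Ccnd3 (-1.94) are low at higher GC content.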

How the data were processed

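RNA of 19 CD8 T cell libraries had been made with SMART-seq v4 and sequenced as paired reads, per the labels' protocols. The deposited values are raw counts of fragments per gene name, made by the authors with featureCounts 1.6.2 on GENCODE M17 exons (GRCm38) with no strand option, per the file headers, which also give each gene's exon length. STAR is named in the submitters' processing notes without a version. Libraries held 37006508 to 54195918 counts. Libraries of 1 group differed by more than counting noise (chi-square 29.9 to 485.3 per degree of freedom), and none was merged.

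CPM used library totals, and RPKM also the exon length. Groups came from the titles. Counts were tested with edgeR 4.0.16 in R 4.3.3, by its quasi-likelihood F test with robust dispersions, TMM factors and filterByExpr: 1 fit of the 15 sorted libraries (16404 genes), 1 of the 4 cultured (14614) and 1 of all 19 (18608). P-values were Benjamini-Hochberg adjusted over all genes of a fit and called under 0.05. Values after ± are standard errors of the log2 fold change. At-least folds set a gene at 0 against 3 counts over the naive libraries. The script was tested on simulated data. Alternatives were DESeq2 1.42.0, other scalings and filters, a replicate block, fits of single comparisons and leaving out each library. GC content and length came from the longest coding transcript of the GRCm38 annotation.

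Members and lists were chosen with earlier results of these data known. Always named were Mki67, Pcna, the MCM genes as a range, Ccnd2, Ccnd3, Cdkn1a, Cdkn1b, Cdkn2c and Mtfr2. Also named were all called members where 12 or fewer were called, otherwise the 3 largest changes of each role, and where a role had no call its smallest p. Of each wider list the 2 smallest p were named. Genes described in the account of levels beyond these were chosen after their values were seen.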

Additional observations from a re-analysis of the deposited data

How the results depend on the processing

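Of the values of single members under the alternatives, 7496 kept their side of the threshold, 266 lost a call and 207 gained one. The 1 called value that changed sign was Cenpf between marker-high and GFP cells, at 0.21 with the GC and length offset. Sign changes of values without a call are not in that count. Mcm6, for example, went from -0.414 to 0.424 in the same comparison. Counts of called members that moved by over 1.5 times follow, and the causes were not tested. Shares of all genes are given for DESeq2 alone. The other counts, and those without 1 library, therefore do not set the members apart from genes at large. Between marker-high and marker-low cells, DESeq2 called 8 higher and 1 lower, beside 2.04% and 2.46% of 16404 genes. The replicate block called 1 higher, the 2 groups alone 0 higher, the macrophage covariate 0 higher and the GC and length offset 1 lower. Between TOX-GFP and GFP cells DESeq2 called 26 higher (2.86% of genes), no filter on low counts 1 and the offset 6. Between late SV40-I and naive cells 3 were lower with library totals alone and with the stricter filter (10 CPM). There 2 were lower with DESeq2 (10.3% of genes) and 4 with the offset. Between marker-low and naive cells 1 was lower with RLE scaling, the stricter filter, the replicate block, DESeq2, the groups alone and the offset. DESeq2 called 10.7% of genes lower there. Between late SV40-I and marker-high cells 1 was higher with the stricter filter, the replicate block and DESeq2 (5.91% of genes). Between late SV40-I and late OT-I cells 4 were lower with the offset. Without the 3 hepatocyte-rich libraries 1 late OT-I library was left. Fewer members were then called between the late groups, and fewer were higher between late OT-I and naive cells. Between marker-high and naive cells 0 were lower with the macrophage covariate. Between marker-high and GFP cells 6 were lower with the offset.

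Leaving out 1 library at a time gave 0 to 4 members higher between marker-high and marker-low cells, 0 to 24 higher between TOX-GFP and GFP cells, 14 to 20 higher and 1 to 4 lower between late SV40-I and naive cells, 9 to 13 higher between late OT-I and naive cells, 36 to 38 higher and 1 to 2 lower between marker-high and naive cells and 32 to 36 higher between marker-low and naive cells. It gave 0 to 2 higher and 25 to 34 lower between late SV40-I and marker-high cells, 2 to 3 higher and 2 to 3 lower between late SV40-I and late OT-I cells, 38 to 42 higher and 0 to 1 lower between GFP and naive cells, and 8 to 19 higher and 5 to 9 lower between marker-high and GFP cells. Whether replicate numbers pair the libraries was not settled, as no label says what the numbers share. Of same-number pairs of sorted libraries 5 of 30 had a correlation of deviations over 0.1 (range -0.218 to 0.273). Of different-number pairs 8 of 60 did (range -0.414 to 0.36). In culture it was 0.0457 for same and -0.0457 for different numbers, and with 2 libraries a group these values are tied to each other. With 2 libraries a cultured group, and with members at 0 in naive cells, depth and replication limit the size of the largest changes.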
